A study of Mus musculus with 8 samples.

Results

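The 10 genes described here, Atf4, Ddit3, Chac1, Asns, Trib3, Sesn2, Psat1, Phgdh, Mthfd2 and Ppp1r15a, encode the transcription factor ATF4, products of genes that it is known to activate, and part of the feedback that ends its induction. They were chosen by name as the ATF4 arm of the integrated stress response, with earlier results of these data known. All 10 were found by symbol among the 25239 genes of the count table, and all 10 had enough counts to be tested. The libraries are RNA-seq of mouse kidney after ischemia-reperfusion (I/R), in which blood flow to the organ is stopped and then restored. There were 4 control libraries, labelled wild type, and 4 libraries labelled as a myeloid FoxO1 knockout. The knockout mice carried Lyz2-CreERT2, a tamoxifen-dependent Cre recombinase expressed from a myeloid lysozyme gene, with floxed FoxO1, and were 8 to 10 weeks old when tamoxifen was injected at 75 mg per kg on 5 days. Per the protocol listed for every sample, the right kidney was taken out and blood flow to the left was blocked with a clamp for 35 minutes. The same age range and tamoxifen course are listed for the control samples, but whether the controls themselves were injected was not stated outright. Whether the wild-type controls carried Cre and how long after reperfusion the kidneys were collected were not given in the sources used here. Nor was it given whether each library came from its own animal. The p-values therefore measure the spread between these libraries, which may be partly technical, and no uninjured kidney was analysed here.

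In the integrated stress response, kinases that sense unfolded proteins, missing amino acids, haem shortage or double-stranded RNA phosphorylate the translation factor eIF2alpha. Most protein synthesis then slows while the Atf4 mRNA is translated more, so ATF4 protein can rise with little change of its own mRNA. ATF4, often as a dimer with a C/EBP protein, activates genes of amino acid synthesis and import, of tRNA charging and of stress signalling. Injury and repair of the kidney tubule are settings in which this response is known to be switched on.

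ATF4 dimers bind a composite site, the C/EBP-ATF response element, with the letters TGATGNAAN. Promoter windows from RefSeq, reaching from 250 bases before to 50 bases after each gene's start, were searched for it on both strands. RefSeq held a window for each of the 10 genes, and 3 of them held the letters: Chac1, Asns and Trib3. Of all 27025 genes with a window, 4.50% did. The stretches around these matches are shown, with the match in capitals, read in the direction of the gene.
Chac1 (GRCm38.p6 chr2:119351017-119351086, plus strand): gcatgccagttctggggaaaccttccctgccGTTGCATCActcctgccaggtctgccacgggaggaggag
Asns (GRCm38.p6 chr6:7693210-7693279, minus strand): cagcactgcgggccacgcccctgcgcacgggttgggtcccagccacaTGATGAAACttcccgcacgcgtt
Trib3 (GRCm38.p6 chr2:152344029-152344057, minus strand): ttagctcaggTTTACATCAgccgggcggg
The Chac1 match lay 194 to 186 bases before the start and the Asns match 23 to 15 bases before it. The Trib3 match lay 13 to 21 bases after the first transcribed base. The Chac1 and Trib3 matches were on the opposite strand, so their capitals are the reverse complement of the letters searched. The genes with a match and the genes that fell were the same only in part. Chac1 and Asns held a match and fell, and Trib3 held one and did not pass. Psat1, Phgdh, Mthfd2 and Ddit3 fell without one. Chac1, Trib3 and Asns had the 3 lowest log2 fold changes of the 10 (-1.93, -1.92 and -1.76). Whether a match and the size of a fall are related was not tested. The stretch before the start of Ppp1r15a, which did not pass either, is shown because it alone of the 10 held another element searched, the cyclic AMP response element TGACGTCA, present in 2.03% of genes on either strand.
Ppp1r15a (GRCm38.p6 chr7:45526269-45526338, minus strand): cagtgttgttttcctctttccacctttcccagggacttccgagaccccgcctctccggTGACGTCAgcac
These are matches of letters, not measured binding, and a window without a match says only that these letters are not in it. The windows are of the assembly GRCm38.p6, while the submitters' processing notes name mm39 for the counts.

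Library totals ran from 29044405 to 35530421 counts. The deposited symbols and not the deposited Ensembl identifiers were used to find genes. Markers of kidney epithelium were present in every library: the summed level of 16 proximal tubule genes was 4876 to 13624 CPM in controls and 11048 to 14456 CPM in knockouts. Foxo1, which the Cre targets, was at 34.5, 33.4, 33.0 and 33.9 CPM across controls 1 to 4 and 41.4, 41.0, 42.9 and 39.3 CPM across knockouts 1 to 4 and did not pass the threshold (log2 fold change 0.29, SE 0.09, edgeR adjusted p = 0.0647, over all alternatives 0.00611 to 0.195, passing in 2 of 15). Whole kidney contains many cells outside the myeloid lineage, so this value does not check the knockout. Levels are CPM, counts scaled to library size with TMM factors, and each log2 fold change is that of knockout relative to control. A gene was said to rise or fall when its edgeR adjusted p, over all 15000 genes tested, was under 0.05. In tissue RNA, fewer cells of a type and less RNA per cell cannot be told apart.

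Of the 10 genes of the ATF4 arm, 6 fell in the knockout kidneys, 0 rose and 4 (Atf4, Trib3, Sesn2 and Ppp1r15a) did not pass. Asns fell to 11.7 CPM from 39.8 CPM (3.39-fold lower), Chac1 fell 3.81-fold, Psat1 and Mthfd2 2.09-fold each, Phgdh 1.85-fold and Ddit3 1.55-fold. Of all genes tested, 6.28% fell, 6.45% rose and 12.7% changed in either direction, and these shares apply to every list below. The 10 genes and the lists were chosen with earlier results of these data known, so the comparison is not an unbiased one. All 10 log2 fold changes were below 0, with a median of -0.98, beside a median of -0.01 over all genes, of which 51.2% were below 0. In 5 of the 10 (Chac1, Asns, Psat1, Phgdh and Mthfd2) every control library was above every knockout library, an arrangement found in 10.6% of all genes, or 21.7% in either direction. The count of genes that fell was 5 without control 2 or control 4 and 5 without control 1, which had the highest level of 9 of the 10 genes among the controls, 3 without knockout 2, knockout 3 or knockout 4, and 2 without control 1 and knockout 3 together. It was 8 without knockout 1.

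**Figure D1:**
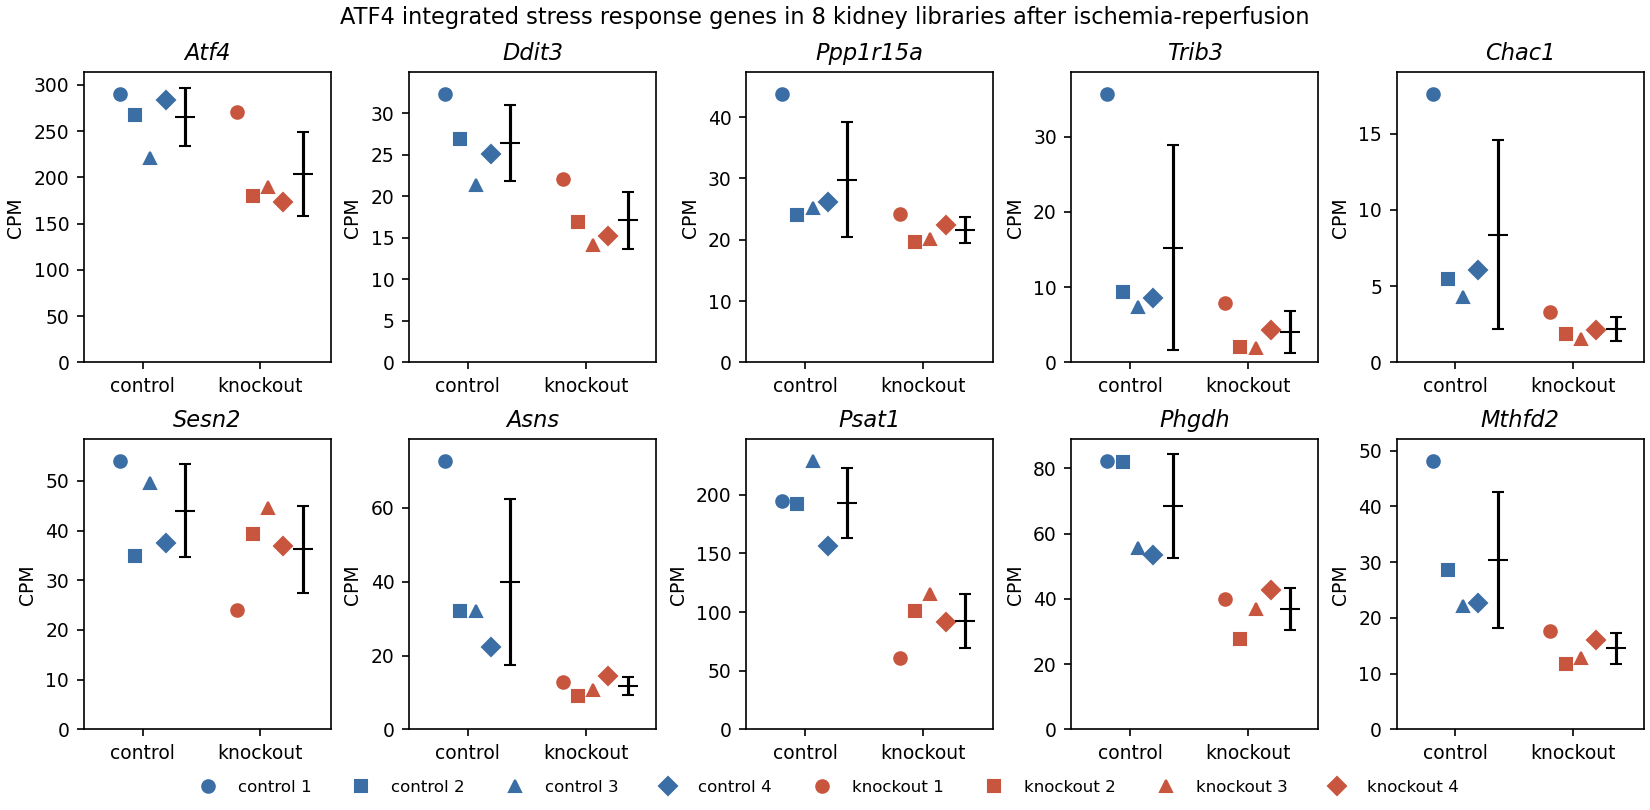
Levels of the 10 genes in CPM (vertical axes, linear from 0) in 4 control (blue) and 4 knockout (red) libraries, where each marker shape is a library and the black bar is the mean ± SD of the group. Control 1 stands above the other controls for Chac1, Trib3, Asns, Mthfd2 and Ppp1r15a, and the groups do not overlap for Chac1, Asns, Psat1, Phgdh and Mthfd2.

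Atf4 itself was the most abundant of the 10 and did not pass. It stood at 290.5, 267, 221 and 283 CPM across controls 1 to 4 and 271, 179.6, 189 and 174 CPM across knockouts 1 to 4. Knockout 1 lay among the controls, above controls 2 and 3, and the other 3 knockouts lay below every control. The means were 265 ± 31.4 and 203 ± 45.6 CPM (SD, n = 4 each; log2 fold change -0.38, SE 0.16, edgeR adjusted p = 0.152). Without knockout 1 the log2 fold change was -0.55 and passed (edgeR adjusted p = 0.0267); over all alternatives the adjusted p ran from 0.0267 to 0.397. These are mRNA levels, and the protein, which is set largely by translation, was not measured.

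Ddit3 encodes CHOP, a transcription factor that ATF4 induces and that favours cell death under lasting stress. Its level was 32.3, 26.9, 21.3 and 25.0 CPM across controls 1 to 4 and 22.0, 16.9, 14.2 and 15.2 CPM across knockouts 1 to 4. Knockout 1 again was the highest knockout and lay just above control 3, so the groups overlapped. The level fell from 26.4 ± 4.59 to 17.1 ± 3.48 CPM (SD, n = 4 each; log2 fold change -0.63, SE 0.18, edgeR adjusted p = 0.0435). This call was lost without control 1, 2 or 4 and without knockout 2, 3 or 4, with an adjusted p of up to 0.123. Ddit3 overlaps the gene models of Mars1 and Mbd6, and the library kit does not mark strand, so some of its reads may belong to them.

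Ppp1r15a encodes GADD34, the stress-induced subunit that brings protein phosphatase 1 to eIF2alpha and so ends the response. It stood at 43.8, 24.0, 25.2 and 26.2 CPM across controls 1 to 4 and 24.2, 19.6, 20.1 and 22.4 CPM across knockouts 1 to 4. Control 1 was well above every other library, and the other 3 controls and the 4 knockouts lay close together with knockout 1 level with control 2. Its log2 fold change was -0.47 (SE 0.20, edgeR adjusted p = 0.143) and -0.22 without control 1.

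Chac1 and Trib3 were the most uneven of the 10 among the controls. Chac1 encodes an enzyme that degrades glutathione and is among the genes most strongly induced by ATF4. It stood at 17.6, 5.51, 4.30 and 6.09 CPM across controls 1 to 4 and 3.31, 1.85, 1.55 and 2.10 CPM across knockouts 1 to 4, from 55 to 627 counts per library. Control 1 was 3.33 times the mean of the other controls, and all 4 controls were above all 4 knockouts. Chac1 fell from 8.38 ± 6.21 to 2.20 ± 0.771 CPM (SD, n = 4 each; log2 fold change -1.93, SE 0.46, edgeR adjusted p = 0.0242). Without control 1 the log2 fold change was -1.27 (edgeR adjusted p = 0.0255), and the call was lost without knockout 2, 3 or 4 (adjusted p up to 0.0741; over all alternatives 3.60e-04 to 0.0741).

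Trib3 encodes a pseudokinase that ATF4 and CHOP induce and that restrains both the kinase AKT and ATF4 itself. Its levels were 35.7, 9.39, 7.41 and 8.55 CPM across controls 1 to 4 and 7.95, 2.03, 1.86 and 4.36 CPM across knockouts 1 to 4. Control 1 was 4.22 times the mean of the other controls, and knockout 1 lay within the range of controls 2 to 4 while knockouts 2 and 3 were lowest. With this spread the group means of 15.3 ± 13.6 and 4.05 ± 2.84 CPM did not pass (log2 fold change -1.92, SE 0.61, edgeR adjusted p = 0.0661). Its log2 fold change was -1.07 without control 1 (edgeR adjusted p = 0.163) and -2.47 without knockout 1, where it passed (edgeR adjusted p = 0.0407); over all alternatives the adjusted p ran from 0.0174 to 0.279.

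Sesn2 encodes sestrin 2, an inhibitor of the growth kinase complex mTORC1 that ATF4 and p53 both induce. It stood at 54.1, 34.8, 49.6 and 37.5 CPM across controls 1 to 4 and 23.9, 39.4, 44.6 and 36.9 CPM across knockouts 1 to 4. Controls 2 and 4 lay below knockouts 2 and 3, and knockout 1 was lowest of all. The fold change was the smallest of the 10 (log2 -0.28, SE 0.21, edgeR adjusted p = 0.401).

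The 4 enzymes of amino acid and one-carbon synthesis fell, and in each of them the groups did not overlap. Asns encodes asparagine synthetase, which makes asparagine from aspartate and glutamine. It stood at 72.8, 32.1, 32.0 and 22.3 CPM across controls 1 to 4 and 13.0, 9.06, 10.6 and 14.4 CPM across knockouts 1 to 4. Control 1 was 2.53 times the mean of the other controls, yet the lowest control was still above the highest knockout. Asns fell from 39.8 ± 22.5 to 11.7 ± 2.38 CPM (SD, n = 4 each; log2 fold change -1.76, SE 0.34, edgeR adjusted p = 0.00964). Without control 1 the log2 fold change was -1.30 (edgeR adjusted p = 0.00360), and Asns passed in all 15 alternatives (adjusted p 5.99e-06 to 0.0366).

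Phgdh and Psat1 encode the first and second enzymes of serine synthesis from a glycolytic intermediate. Phgdh stood at 82.4, 82.1, 55.6 and 53.5 CPM across controls 1 to 4 and 40.1, 27.8, 37.0 and 42.6 CPM across knockouts 1 to 4. Controls 1 and 2 were alike and higher than controls 3 and 4, and the knockouts lay lower. Phgdh fell from 68.4 ± 16.0 to 36.9 ± 6.45 CPM (SD, n = 4 each; log2 fold change -0.89, SE 0.19, edgeR adjusted p = 0.0146) and passed without any 1 library; it did not pass without control 1 and knockout 3 together (edgeR adjusted p = 0.0595; over all alternatives 4.15e-04 to 0.0604).

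Psat1 stood at 194, 192, 229 and 156 CPM across controls 1 to 4 and 61.1, 101, 115 and 91.7 CPM across knockouts 1 to 4. Here control 3 and not control 1 was highest, and knockout 1, the highest knockout for 6 of the genes, was the lowest. Psat1 fell from 193 ± 29.7 to 92.2 ± 22.9 CPM (SD, n = 4 each; log2 fold change -1.06, SE 0.19, edgeR adjusted p = 0.00779), with the smallest adjusted p of the 10, and passed in all 15 alternatives (adjusted p 7.31e-06 to 0.0301).

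Mthfd2 encodes a mitochondrial enzyme that passes on the folate-bound carbon unit released from serine. It stood at 48.2, 28.5, 22.2 and 22.6 CPM across controls 1 to 4 and 17.7, 11.7, 12.7 and 16.1 CPM across knockouts 1 to 4. Control 1 was 1.97 times the mean of the other controls, and the lowest control was above the highest knockout. Mthfd2 fell from 30.4 ± 12.2 to 14.5 ± 2.79 CPM (SD, n = 4 each; log2 fold change -1.06, SE 0.26, edgeR adjusted p = 0.0250). Its log2 fold change was -0.75 without control 1 (edgeR adjusted p = 0.0252), and the call was lost without knockout 2, 3 or 4 (adjusted p up to 0.0774; over all alternatives 0.00150 to 0.0774).

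**Figure D2:**
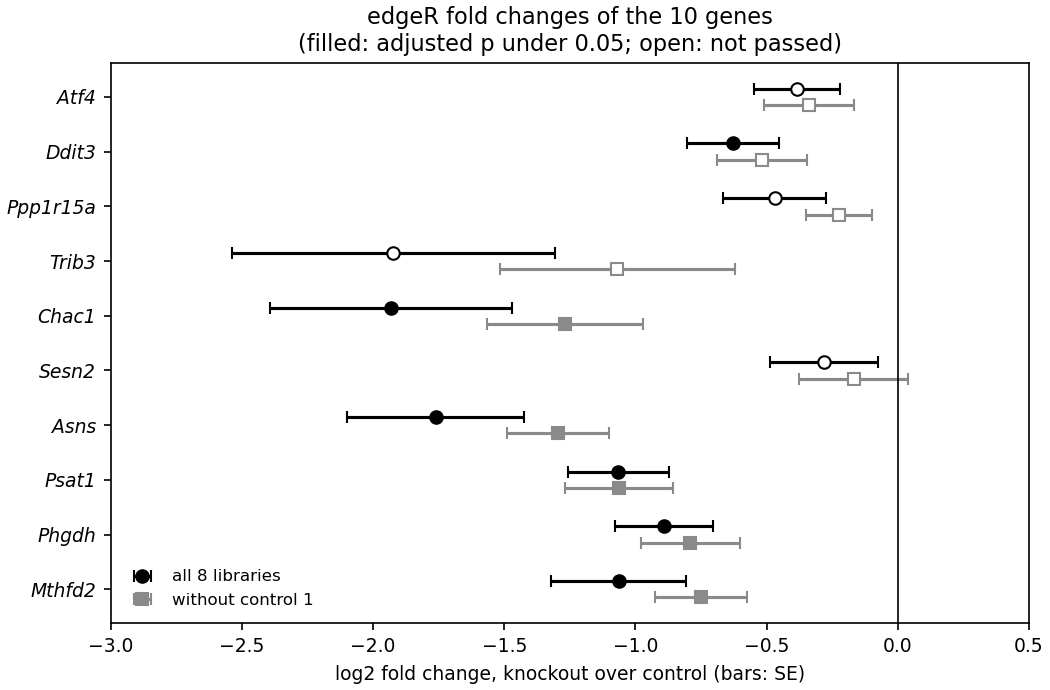
Log2 fold changes of knockout over control from edgeR (horizontal axis, bars are SE) for the 10 genes (vertical axis), with all 8 libraries (black circles) and without control 1 (grey squares), filled where the adjusted p was under 0.05. Without control 1 the estimates of Chac1, Trib3 and Asns move to -1.27, -1.07 and -1.30, while Psat1 stays near -1.06.

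Within a group, the 10 genes ordered the libraries in different ways. Relative to the control mean of log2 CPM, control 1 stood at 1.56 for Trib3, 1.30 for Chac1 and 1.02 for Asns, but at 0.14 for Atf4 and 0.02 for Psat1. Relative to the knockout mean, knockout 1 stood at 1.22 for Trib3, 0.63 for Chac1 and 0.44 for Atf4, and at -0.56 for both Sesn2 and Psat1. Psat1 and Sesn2 thus had an order of libraries of their own, with knockout 1 lowest and knockout 3 the highest knockout. Likeness was measured as the root mean square difference of log2 CPM over the 8 libraries, each gene centred on its own mean. The values were not scaled, so genes that vary by unlike amounts are far apart even where they order the libraries alike. By this measure the closest pair was Atf4 and Ddit3 (0.17), followed by Ddit3 with Ppp1r15a and Phgdh with Mthfd2 (0.23 each), and the most distant pair was Trib3 and Sesn2 (1.25).

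**Figure D3:**
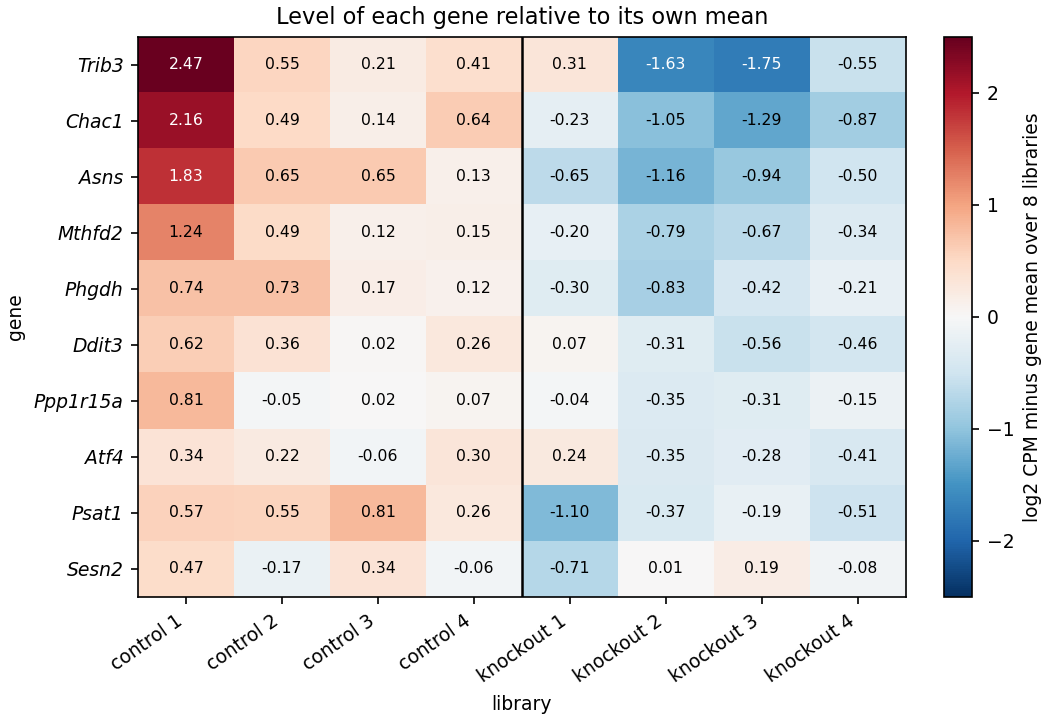
Log2 CPM of each gene (rows) minus its mean over the 8 libraries (columns), red above and blue below that mean, with the value in each cell. Control 1 reaches 2.47 for Trib3 and 2.16 for Chac1, and knockout 1 is the lowest library for Psat1 and Sesn2 only.

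Among 12091 genes ranked by the same measure over the 8 libraries, the 3 nearest to Atf4 were Bax, Cdc42ep4 and Rhog (root mean square difference 0.08, 0.08 and 0.08). Ddit3 was at rank 234 and Chac1, which varied far more than Atf4, at rank 11376. Ranked from Chac1 instead, Atf4 was at rank 893 with the same difference of 0.83, so these ranks do not compare the order of libraries alone. The 3 nearest to Chac1 were Cd44, Pf4 and Cldn4 (0.26, 0.28 and 0.33). Of these, Cd44, a surface receptor for hyaluronan, is on the injured tubule list, Pf4 and Cldn4 are on no marker list, and the cells that made these transcripts were not identified. Trib3 and Asns followed at ranks 6 and 7 and Mthfd2 at rank 30, while Psat1 was at rank 1021 and Sesn2 at rank 3991.

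Per kilobase of the deposited gene length, which allows levels of different genes to be compared, Atf4 was highest in the controls at 153 ± 18.2 CPM per kb (SD, n = 4), followed by Psat1 at 77.5 ± 11.9, Phgdh at 36.5 ± 8.56 and Ddit3 at 30.3 ± 5.27. Phgdh and Ddit3 did not differ beyond their spread, nor did Asns at 20.3 ± 11.5, Sesn2 at 16.6 ± 3.50, Mthfd2 at 14.7 ± 5.91 and Ppp1r15a at 12.8 ± 4.02 CPM per kb. Trib3 at 7.44 ± 6.65 and Chac1 at 5.34 ± 3.95 CPM per kb were lowest. In the knockouts Atf4 was at 118 ± 26.4, Psat1 at 37.0 ± 9.18, and Phgdh and Ddit3 at 19.7 ± 3.44 and 19.6 ± 4.00 CPM per kb. Sesn2 at 13.6 ± 3.31 CPM per kb came next there, ahead of Ppp1r15a, Mthfd2 and Asns at 9.24 ± 0.921, 7.03 ± 1.35 and 5.99 ± 1.21, with Trib3 at 1.97 ± 1.39 and Chac1 at 1.40 ± 0.491 last.

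Ratios within a library do not depend on its scaling, and 3 were compared. The log2 ratio of Ppp1r15a, the induced phosphatase subunit, to Ppp1r15b, the constitutive one, was -1.32, -2.09, -2.15 and -2.16 in controls 1 to 4 and -2.15, -2.62, -2.45 and -2.22 in knockouts 1 to 4. Control 1 stood apart, and the other controls lay close to knockouts 1 and 4. The log2 ratio of Mthfd2 to its relative Mthfd2l was 1.93, 1.35, 0.94 and 1.31 in controls 1 to 4 and 0.55, -0.12, 0.46 and 1.09 in knockouts 1 to 4, with knockout 4 above control 3. The log2 ratio of Ddit3 to Atf4 was -3.17, -3.31, -3.37 and -3.50 in controls 1 to 4 and -3.62, -3.40, -3.73 and -3.51 in knockouts 1 to 4, and the groups overlapped through knockout 2 and control 4. The differences, knockout minus control, were -0.43, -0.88 and -0.23, with two-sided exact permutation p = 0.0857, 0.0571 and 0.0571 and 0.0857 each after Benjamini-Hochberg adjustment over the 3. The smallest p that 70 assignments of 4 against 4 allow is 0.0286.

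Upstream of ATF4, transcripts of the machinery that senses stress fell at about the share found over all genes. The list held 18 genes for the eIF2alpha kinases, the eIF2 and eIF2B subunits and their phosphatase. Of these, 1 fell (5.56%, beside 6.28% of all genes), 0 rose and 17 did not pass. Of the 18 log2 fold changes, 15 were below 0, with a median of -0.17. The 4 kinases did not pass: the log2 fold change was 0.07 for the haem sensor Eif2ak1 (SE 0.11), -0.33 for the double-stranded RNA sensor Eif2ak2 (SE 0.17), 0.05 for the endoplasmic reticulum sensor Eif2ak3, known as PERK (SE 0.15), and -0.25 for the amino acid sensor Eif2ak4, known as GCN2 (SE 0.25). The signs of Eif2ak1, Eif2ak3 and Eif2ak4 turned in some alternatives, and kinase activity is not read by mRNA. Eif2s1, which encodes eIF2alpha, fell from 68.8 ± 11.3 to 48.7 ± 2.80 CPM (SD, n = 4 each; log2 fold change -0.50, SE 0.13, edgeR adjusted p = 0.0310), a call lost without control 3 or any 1 knockout (adjusted p up to 0.0945). Impact, an inhibitor of GCN2, Eif2s2 and Eif2b3 missed the threshold at log2 fold changes of -0.56, -0.51 and -0.44 (edgeR adjusted p 0.117, 0.141 and 0.190), each further below 0 than that of Atf4.

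Of 11 leucine zipper factors that pair with or resemble ATF4 and CHOP, 3 fell, 0 rose and 8 did not pass (median log2 fold change -0.36). Atf3, a stress-induced repressor, stood at 23.2, 19.1, 17.2 and 15.6 CPM across controls 1 to 4 and 8.10, 4.29, 4.65 and 5.45 CPM across knockouts 1 to 4; every control was above every knockout (log2 fold change -1.74, SE 0.23, edgeR adjusted p = 0.00204). Cebpd fell from 58.5 ± 12.2 to 17.2 ± 4.21 CPM (log2 fold change -1.76, SE 0.21, edgeR adjusted p = 0.00155). Atf5, a relative of ATF4 that is also regulated through translation, fell from 76.4 ± 22.2 to 42.4 ± 9.56 CPM (log2 fold change -0.85, SE 0.22, edgeR adjusted p = 0.0327), a call lost without control 1 or 2 or without knockout 2, 3 or 4 (adjusted p up to 0.0967). Cebpb did not pass (log2 fold change -0.78, edgeR adjusted p = 0.0523).

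Other ATF4 or CHOP targets in stress signalling, secretion and cell death moved in both directions. Of 19 such genes, 7 fell, 2 rose and 10 did not pass, with a median log2 fold change of -0.54. Gdf15, a secreted stress hormone, fell from 100.1 ± 19.3 to 24.1 ± 7.35 CPM (SD, n = 4 each; log2 fold change -2.05, SE 0.24, edgeR adjusted p = 0.00146). Eif4ebp1, an inhibitor of cap-dependent translation, fell from 124 ± 45.5 to 49.9 ± 7.41 CPM (log2 fold change -1.31, SE 0.23, edgeR adjusted p = 0.00646), and Tnfrsf10b, a death receptor, had a log2 fold change of -1.33. Stc2, a secreted glycoprotein also known as an ATF4 target, rose instead, from 2.64, 2.03, 1.71 and 2.62 CPM in controls 1 to 4 to 14.4, 14.9, 7.73 and 15.0 CPM across knockouts 1 to 4 (log2 fold change 2.53, SE 0.27, edgeR adjusted p = 9.08e-04). Also rising was Sesn1, the p53-induced relative of Sesn2 (log2 fold change 0.67, edgeR adjusted p = 0.0346), and its call was lost without control 1, 3 or 4 or knockout 1, 2 or 4 (adjusted p up to 0.0950).

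Of 12 amino acid transporters known as ATF4 targets, 3 fell, 1 rose and 8 did not pass (median log2 fold change -0.36). The glycine transporter gene Slc6a9 fell from 52.3 ± 8.15 to 26.5 ± 3.07 CPM (SD, n = 4 each; log2 fold change -0.98, SE 0.14, edgeR adjusted p = 0.00303). Slc7a11, the cystine transporter gene, stood at 13.4, 1.13, 3.12 and 2.04 CPM across controls 1 to 4 and 0.972, 0.347, 0.479 and 0.474 CPM across knockouts 1 to 4, so that control 1 again stood apart. The log2 fold change of Slc7a11 was -3.13 (edgeR adjusted p = 0.0257) and -1.89 without control 1, and its call was lost without knockout 2, 3 or 4. Its knockout levels were below those of Chac1, so depth limits this fold change as well. Slc7a5, which imports large neutral amino acids, fell (log2 fold change -0.81, edgeR adjusted p = 0.0399) and Slc36a4 rose (0.67, edgeR adjusted p = 0.0403), and of the 8 fits lacking a library each passed in 1 (without control 2 for Slc7a5, without control 1 for Slc36a4). The count of transporters that changed was 2 without control 3, control 4 or knockout 1 and 1 without knockout 2, 3 or 4.

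The remaining enzymes of amino acid and folate metabolism were mixed in direction. Of 21 tested, 1 fell, 3 rose and 17 did not pass (19% changed, beside 12.7% of all genes), and the median log2 fold change was 0.20. Mthfd1l, the mitochondrial enzyme that acts after Mthfd2 in the folate pathway, was the gene that fell: it stood at 23.4, 12.8, 13.8 and 12.5 CPM across controls 1 to 4 and 4.68, 4.20, 5.25 and 5.48 CPM across knockouts 1 to 4 (log2 fold change -1.67, SE 0.23, edgeR adjusted p = 0.00251). Its cytosolic counterpart Mthfd1 rose from 163 ± 28.9 to 254 ± 16.6 CPM (log2 fold change 0.64, SE 0.14, edgeR adjusted p = 0.0190), a call lost without knockout 2 or 4. Cbs and Cth, the enzymes that turn homocysteine into cysteine, rose as well, Cbs from 50.2 ± 20.1 to 146 ± 24.9 CPM (log2 fold change 1.54, SE 0.27, edgeR adjusted p = 0.00681) and Cth from 117 ± 27.2 to 193 ± 43.2 CPM (edgeR adjusted p = 0.0429). Cth passed without control 2 and without knockout 4, and its call was lost without each of the other 6 libraries. The count of genes that changed was 2 without knockout 2.

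Cytosolic aminoacyl-tRNA synthetases, which charge tRNAs with amino acids and are known ATF4 targets in part, were lower by small amounts. Of 20 tested, 12 fell, 0 rose and 8 did not pass, all 20 log2 fold changes were below 0, and their median was -0.40. Their summed level was 2135 to 2409 CPM in controls and 1646 to 1683 CPM in knockouts. Sars, for serine, fell from 324 ± 35.8 to 213 ± 11.7 CPM (SD, n = 4 each; log2 fold change -0.60, SE 0.12, edgeR adjusted p = 0.0104) and Vars, for valine, from 108 ± 7.15 to 76.4 ± 2.03 CPM (log2 fold change -0.50, SE 0.10, edgeR adjusted p = 0.00981). Farsb, a subunit of the phenylalanine enzyme, and Qars, for glutamine, had log2 fold changes of -0.54 and -0.43 and passed, Qars not without control 3, knockout 3 or knockout 4. The count that fell was 7 without control 1, 4 without control 3 or knockout 3, 5 without knockout 2 and 3 without knockout 4.

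Lists for other stress branches held few changed genes. Of 24 genes driven by ATF6 and XBP1 in the endoplasmic reticulum, 1 fell (4.17%, beside 6.28% of all genes), 0 rose and 23 did not pass. Their median log2 fold change was 0.06. The gene that fell was Dnajb9, a co-chaperone gene (log2 fold change -0.35, edgeR adjusted p = 0.0457), and its call was lost without control 1, 3 or 4 or knockout 2, 3 or 4. Xbp1 stood at 349 ± 52.0 and 249 ± 33.7 CPM (log2 fold change -0.49, edgeR adjusted p = 0.0555) and passed without control 1. Sdf2l1 and Dnajc3 missed it at log2 fold changes of 0.51 and 0.26. Of 11 mitochondrial chaperones, proteases and parts of the relay that reports mitochondrial stress to Eif2ak1, 0 changed in edgeR (2 at an unadjusted p under 0.05), against 2 in DESeq2 and 1 in limma voom. Dele1, the messenger of that relay, had a log2 fold change of 0.31, Hspd1 of -0.29, Oma1 of -0.21 and Trap1 of 0.24. The lists were compared by counts and medians only, and a difference between lists was not tested.

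**Figure D4:**
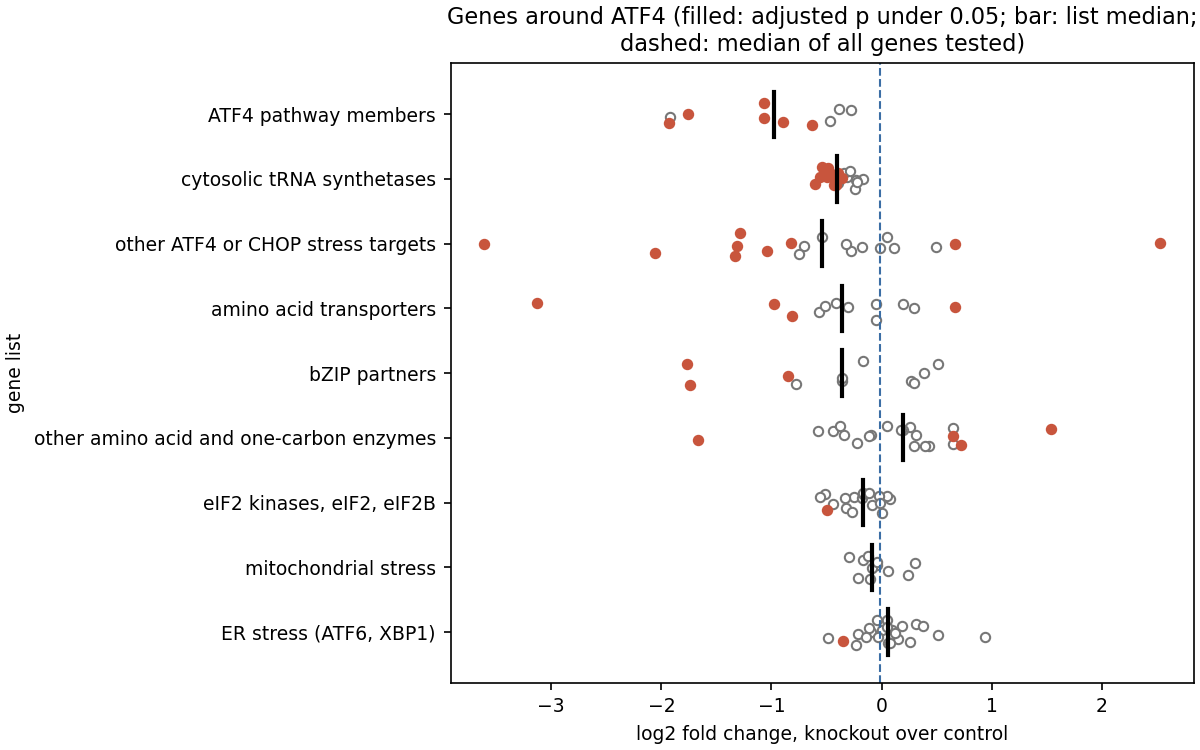
Log2 fold change of knockout over control (horizontal axis) for every tested gene of 9 lists (vertical axis, points spread vertically for legibility only), filled where the adjusted p was under 0.05, with the median of each list as a black bar and the median of all genes as a dashed line. The 10 ATF4 genes have a median of -0.98 and the tRNA synthetases of -0.40, while the ATF6 and XBP1 list has a median of 0.06.

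Marker lists of other cell types and states differed between the groups in both directions. The summed level of 15 injured tubule genes was 15917 to 30560.3 CPM in controls and 6259 to 7093 CPM in knockouts, with 12 of them fallen. Controls 3 and 1 had the higher sums, 30560.3 and 29579 CPM, beside 15917 and 18339 CPM in controls 2 and 4. Control 1 was the highest control for 9 of the 10 ATF4 genes, and control 3 was the lowest control for 5 of them. Whether these sums and the ATF4 genes are related was not tested. The summed level of 8 neutrophil genes was 204 CPM in control 1, 56.7, 32.1 and 42.3 CPM in controls 2 to 4, and 7.11 to 18.4 CPM in the knockouts, where knockout 1 was highest; 7 of the 8 fell. The 13 macrophage and monocyte genes summed to 327 to 436 CPM in controls and 247 to 407 CPM in knockouts, with 3 fallen, 0 risen and a median log2 fold change of 0.17, so these sums overlapped. The 17 immediate early and heat shock genes, which can respond to the collagenase digestion of the tissue, summed to 3710.1 to 4512 CPM in controls and 2603 to 3139 CPM in knockouts, with 9 fallen, and control 1 had the lowest control sum.

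Several lists of nephron segments stood higher in the knockouts. Of the 8 genes of the thick ascending limb of the loop of Henle 7 rose (median log2 fold change 1.24), and they summed to 2311 to 3975 CPM in controls and 6919.5 to 7980.0 CPM in knockouts. Of the 13 distal tubule and collecting duct genes 11 rose (median 1.35), and they summed to 699 to 1687 CPM in controls and 2659 to 3443 CPM in knockouts. Of the 16 proximal tubule genes 4 rose (median 0.63), with overlapping sums. Control 1, the highest control for 9 of the 10 ATF4 genes, had the lowest sum of all libraries on each of these lists: 4876 CPM for the proximal tubule, 2311 CPM for the loop of Henle and 699 CPM for the distal tubule and collecting duct. Podocyte genes rose in 5 of 6 (342 to 438 CPM in controls and 531 to 591 CPM in knockouts) and endothelial genes in 3 of 8 (171 to 358 CPM in controls and 366 to 454 CPM in knockouts). The 7 fibroblast genes had a median log2 fold change of 0.75 and overlapping sums (240.0 to 671 CPM in controls and 543 to 881 CPM in knockouts). Sums overlapped as well for the 9 lymphocyte genes (2.36 to 11.3 CPM in controls and 6.54 to 11.5 CPM in knockouts). Of these, 6 were tested, with a median log2 fold change of 0.45. No gene of these 11 lists was at 0 in all libraries. The part of these cells and of handling in the ATF4 result was not tested.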

How the data were processed

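Counts of reads per gene were analysed in 8 kidney RNA-seq libraries, 4 control and 4 knockout. The authors deposited 1 table of whole-number counts per gene without normalization, with a gene length in another column. Per the submitters' processing notes, the tools were Salmon 1.10.2, HISAT2 2.2.1, Trim Galore 0.6.2 and FastQC, on build mm39. The role of each tool, the gene models and filtering were not given in the sources used here. Of values from 1 to 20, 68.7% to 70.9% per library were even, against 49.5% to 50.4% of values over 100, so a count may stand for less than 1 independent fragment.

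Groups came from the sample titles. edgeR 4.0.16 in R 4.3.3 was run on all 8 libraries: filterByExpr by group with a minimum count of 10, TMM, glmQLFit and glmQLFTest without covariates, with Benjamini-Hochberg adjusted p-values over all 15000 genes tested. SE was derived from the F statistic, and log2 CPM used a prior count of 2. The script was tested on simulated data. Alternatives were DESeq2 1.42.0, limma 3.58.1 voom with sample quality weights, RLE and upper quartile factors, no filter on low counts, the replicate number as a block, each library left out in turn, and control 1 with knockout 3 left out. Ratios were compared by exact permutation.

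The 10 genes, 8 pathway lists and 11 marker lists were chosen with earlier results of these data known. Named were the 10 genes, Foxo1, Atf3, the 4 eIF2alpha kinases, up to 4 genes of each pathway list by smallest p, and the 3 genes nearest to Atf4 and to Chac1 whose mean log2 CPM was 1 or more, without predicted genes and pseudogenes. Ppp1r15b and Mthfd2l were named for the ratios and Sesn1, outside this rule, after its value was seen. Reads carry no molecular identifiers and are not independent molecules, so depth covers counting error only.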

Additional observations from a re-analysis of the deposited data

Results flagged for a closer look

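Among the 10 genes, 2 of 20 groups of 4 libraries held a library far from the rest, by the critical value of Dixon's test for the gap to the nearest library. Trib3 stood at 5.16 log2 CPM in control 1, where the nearest control was at 3.24. Ppp1r15a stood at 5.46 log2 CPM in control 1, where the nearest control was at 4.71. Chance gives such a gap in about 1 of 20 groups. Control 1 also had the highest summed neutrophil level, 204 CPM, and whether the 2 are related was not tested.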

How the results depend on the processing

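With 1 library left out, the number of genes that changed ran from 907 to 1984 (against 1909), of the 10 ATF4 genes from 3 to 8 (6), of the eIF2 list from 0 to 1 (1), of the transporters from 1 to 4 (4), of the other amino acid and folate enzymes from 2 to 5 (4), of the tRNA synthetases from 3 to 13 (12) and of the ATF6 and XBP1 list from 0 to 1 (1). In the fits with DESeq2, 3109 genes changed, with 5 of the zipper factors, 7 of the other amino acid and folate enzymes, 2 of the ATF6 and XBP1 list and 2 of the mitochondrial list; with voom the zipper factors were at 6, the ATF6 and XBP1 list at 2 and the mitochondrial list at 1. The ATF6 and XBP1 list was at 0 with RLE factors and without a filter on low counts. Without control 1 and knockout 3, 1045 genes changed, with 2 of the 10 ATF4 genes, 0 of the eIF2 list, 2 transporters, 2 tRNA synthetases and 0 of the ATF6 and XBP1 list. With the replicate number as a block, 865 genes changed, 6 of the 10 ATF4 genes (Trib3 in place of Phgdh, whose adjusted p was 0.0604), 0 of the eIF2 list, 2 transporters, 1 tRNA synthetase and 0 of the ATF6 and XBP1 list. The labels state no pairing by number. The block used the numbers in the sample titles. Deviations of libraries with the same title number correlated at -0.20, 0.04, 0.15 and -0.16. The deposited columns number the knockouts otherwise, as T2, T3, T5 and T6, beside C1 to C4 for the controls. By column number, control 2 pairs with knockout 1 (0.35) and control 3 with knockout 2 (0.17). Over all pairs of a control with a knockout the values ran from -0.33 to 0.35. These values cannot exclude a pairing or a shared batch. The signs of 3 kinase genes turned, with Eif2ak1 at -0.00422 (without control 1), -0.0233 (control 1 and knockout 3 both left out), Eif2ak3 at -0.00527 (without control 2), -0.0361 (without knockout 3), -0.0117 (without knockout 4), and Eif2ak4 at 0.0203 (voom with sample quality weights), none of them past the threshold; without 1 library, Eif2ak1 ran from -0.00422 to 0.12 and Eif2ak3 from -0.0361 to 0.15. The fold changes of the 10 ATF4 genes were below 0 in all 15 alternatives. The ratio differences kept their sign without any 1 library (-0.50 to -0.22, -1.08 to -0.68 and -0.28 to -0.17). The causes of these shifts were not tested, beyond the smaller number of libraries where some were left out. Among the 10 ATF4 genes, depth limits Chac1 and Trib3 most, with as few as 55 and 66 counts in a library.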
